A study of Mus musculus with 203 samples.

Results

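Serotonin receptor genes were measured in single neurons of the mouse nucleus ambiguus (Amb), the brainstem group that holds the vagal preganglionic neurons of the heart and the motor neurons of the larynx. The 10 genes *Htr1a*, *Htr1b*, *Htr1d*, *Htr2a*, *Htr2b*, *Htr2c*, *Htr3a*, *Htr3b*, *Htr4* and *Htr7* were taken by name from a table of 24029 genes. The neurons came from wild-type C57BL/6 mice (substrain C57BL/6NCrl in the study's methods) of either sex that received the retrograde tracer cholera toxin B on postnatal day 1, into the pericardial space or into the cricothyroid muscle of the larynx, and whole labelled somata were aspirated from brainstem slices on postnatal days 2 to 4. The deposited annotation assigns the neurons to 3 types, the cardiac-projecting ACP (53 neurons) and ACV (98 neurons) and the Larynx type (52 neurons). All groups shared this genotype and the tracer. The injection site coincides with the type in the comparisons of cardiac with Larynx neurons, and the 2 cannot be told apart.

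Serotonin reaches the nucleus ambiguus mainly from the raphe nuclei of the brainstem. Its receptors fall into a family of G protein-coupled receptors and a single ligand-gated ion channel family. The Htr1 receptors act through Gi/o and dampen excitability, the Htr2 receptors act through Gq and phospholipase C, Htr4 and Htr7 act through Gs and adenylyl cyclase, and the Htr3 subunits form a fast cation channel. Htr3a assembles into channels by itself, whereas Htr3b needs Htr3a as a partner and changes the conductance and kinetics of the channel it joins.

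Promoter windows are shown for a leading receptor of each type: *Htr3b* and *Htr7*, which had the highest mean level per length in ACV and ACP, and *Htr2c*, which had the highest of the G protein-coupled receptors in Larynx neurons. Each window of 300 bases runs 5′ to 3′ and ends 50 bases after the start of the gene in RefSeq (GRCm38.p6), at chr9:48964941-48965240 on the minus strand, chr19:36057311-36057610 on the minus strand and chrX:146962263-146962562 on the plus strand. Capitals mark the letters TAAT on either strand, the core recognised by many homeodomain factors, and overlapping matches merge into a single capital run.
Htr3b: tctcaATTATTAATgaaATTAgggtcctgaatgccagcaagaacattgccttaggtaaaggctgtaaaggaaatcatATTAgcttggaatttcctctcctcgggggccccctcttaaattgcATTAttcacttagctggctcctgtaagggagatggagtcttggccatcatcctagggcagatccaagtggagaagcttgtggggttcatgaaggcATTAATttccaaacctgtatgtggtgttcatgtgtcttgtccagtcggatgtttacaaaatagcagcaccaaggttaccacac
Htr7: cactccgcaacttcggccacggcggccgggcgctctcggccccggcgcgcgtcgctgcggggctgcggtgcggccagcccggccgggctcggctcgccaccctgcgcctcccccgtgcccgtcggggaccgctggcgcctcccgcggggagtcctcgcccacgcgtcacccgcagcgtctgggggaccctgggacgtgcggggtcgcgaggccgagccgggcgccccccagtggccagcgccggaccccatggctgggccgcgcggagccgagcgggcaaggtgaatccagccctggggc
Htr2c: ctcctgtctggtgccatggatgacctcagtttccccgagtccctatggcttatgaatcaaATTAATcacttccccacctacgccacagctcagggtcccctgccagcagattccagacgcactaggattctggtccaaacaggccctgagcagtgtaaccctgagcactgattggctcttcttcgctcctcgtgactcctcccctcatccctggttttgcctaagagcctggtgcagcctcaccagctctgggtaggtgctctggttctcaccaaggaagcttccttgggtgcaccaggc

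The *Htr3b* window held 8 matches of TAAT, the *Htr2c* window 2 and the *Htr7* window 0. Of all 32851 promoter windows of this length, 58% held at least 1 match and 1.47% held 8 or more. The letters TAAT were chosen after the sequences had been seen. TAATTA, which contains TAAT on both strands and was searched first, was in none of the 3 windows and in 5.29% of all windows. Of the other letters searched on both strands, the TATA box TATAAA (13.6% of all windows) and the GC box GGGCGG (35.7%) had no match in the 3 windows, and CCAAT (37.4%) matched only in the *Htr2c* window, once. The GC content was 44.3% for *Htr3b*, 56.3% for *Htr2c* and 81% for *Htr7*, beside a median of 52.7% over all windows. The matches are descriptions of letters and no binding was measured. RefSeq windows were matched for 8 of the 10 genes, and *Htr3a* and *Htr4* were without one.

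The values are read counts of a full-length (Smart-seq2) library of each neuron. A level is the count of a gene per 10000 of the counts of that neuron outside *Rn45s*, a ribosomal RNA gene, and a gene was detected where it had at least 1 read. The counts outside *Rn45s* had medians of 1115375 in ACP, 1120512 in ACV and 560892 in Larynx neurons, and the share of all counts on *Rn45s* had medians of 34.3%, 35.9% and 58.6%. *Slc18a3*, the vesicular acetylcholine transporter gene, was detected in every neuron, and the listed cholinergic markers summed to medians of 36, 39.6 and 48.8 per 10000. *Apoe*, which is abundant in astrocytes, exceeded the 1800 counts that the methods give as an upper limit in 11 ACP and 28 ACV neurons and in 0 Larynx neurons. No label names the animal of a neuron, so each type was treated as 1 sample and no test between types was made. The intervals are 95% exact (Clopper-Pearson) binomial intervals and cover counting error over neurons only, and SD is the spread over neurons. ACP and ACV were defined by clustering these same counts, so a difference between them is a description.

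**Figure D1:**
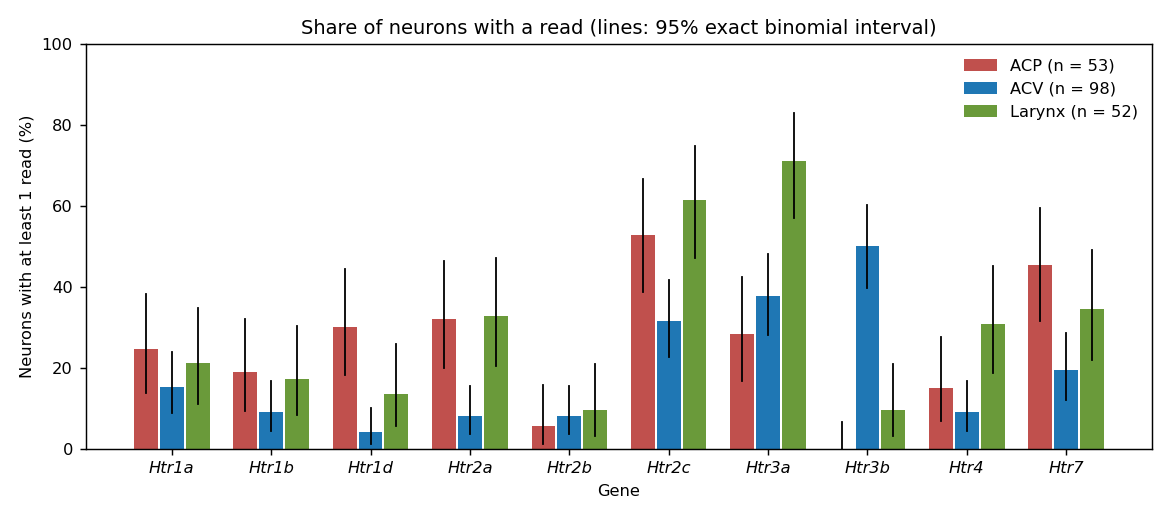
Share of neurons with at least 1 read of each gene (y axis, percent) in ACP (n = 53), ACV (n = 98) and Larynx (n = 52) neurons, with 95% exact binomial intervals as lines. *Htr3b* stands at 0% in ACP and 50% in ACV, and *Htr3a* reaches 71.2% in Larynx neurons.

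The ion channel subunits differed among the types in both share and level. *Htr3b* was detected in 49 of 98 ACV neurons (50%, 39.7 to 60.3), in 5 of 52 Larynx neurons (9.62%, 3.20 to 21) and in 0 of 53 ACP neurons, which allows a share of up to 5.66% by a limit of 3 counts and 6.72% by the exact interval. In ACV neurons its level had a median of 0.0154 and a highest value of 3.03, with a mean of 0.527 ± 0.790 (SD, n = 98). Each ACV neuron that counted as detected had at least 3 *Htr3b* reads, and the median level over these neurons was 0.832. In Larynx neurons the highest level was 0.854 and the mean 0.0255 ± 0.123 (SD, n = 52), with 64.5% of the 76 reads in 1 neuron.

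*Htr3b* had no read among the 64595395 ACP counts outside *Rn45s*. Against a floor of 3 counts over all ACP neurons, the pooled *Htr3b* level was 1308-fold higher in ACV and 51.8-fold in Larynx neurons. Neither ratio is a lower bound, because reads cluster by neuron and each detected ACV neuron held at least 3. The ACP share of up to 6.72% that the exact interval allows was not carried into these ratios. The Larynx ratio rests on 76 reads, with 64.5% of them in 1 neuron.

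*Htr3a*, the subunit that every Htr3 channel contains, had another order. It was detected in 37 of 52 Larynx neurons (71.2%, 56.9 to 82.9), 37 of 98 ACV neurons (37.8%, 28.2 to 48.1) and 15 of 53 ACP neurons (28.3%, 16.8 to 42.4). The Larynx interval overlapped neither of the others, whereas those of ACV and ACP overlapped. In Larynx neurons the level ran from 0 to 5.94 with a median of 0.249 and a mean of 1.23 ± 1.61 (SD, n = 52). In ACV neurons it ran from 0 to 5.54 with a mean of 0.415 ± 0.911 (SD, n = 98), and in ACP neurons from 0 to 3.69 with a mean of 0.139 ± 0.530 (SD, n = 53). The groups overlapped widely, and a single ACP neuron held 37.3% of the 759 ACP reads.

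The 2 genes are neighbours. On GRCm38 with GENCODE annotation, *Htr3a* occupies chr9:48899213-48911099 and *Htr3b* chr9:48935008-48964990, both on the minus strand with 9 exons each, and 23908 bases lie between them. Their exons share no run of 75 bases, the read length, so reads of this length can be assigned to one gene or the other.

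Co-detection of the 2 subunits differed among the types. Of the 98 ACV neurons, 30 had reads of both genes (30.6%, 21.7 to 40.7), 19 of *Htr3b* alone (19.4%), 7 of *Htr3a* alone (7.14%) and 42 of neither (42.9%). Of the 52 Larynx neurons, 4 had both (7.69%), 33 had *Htr3a* alone (63.5%), 1 had *Htr3b* alone and 14 had neither. ACP neurons had *Htr3a* alone in 15 and neither in 38.

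**Figure D2:**
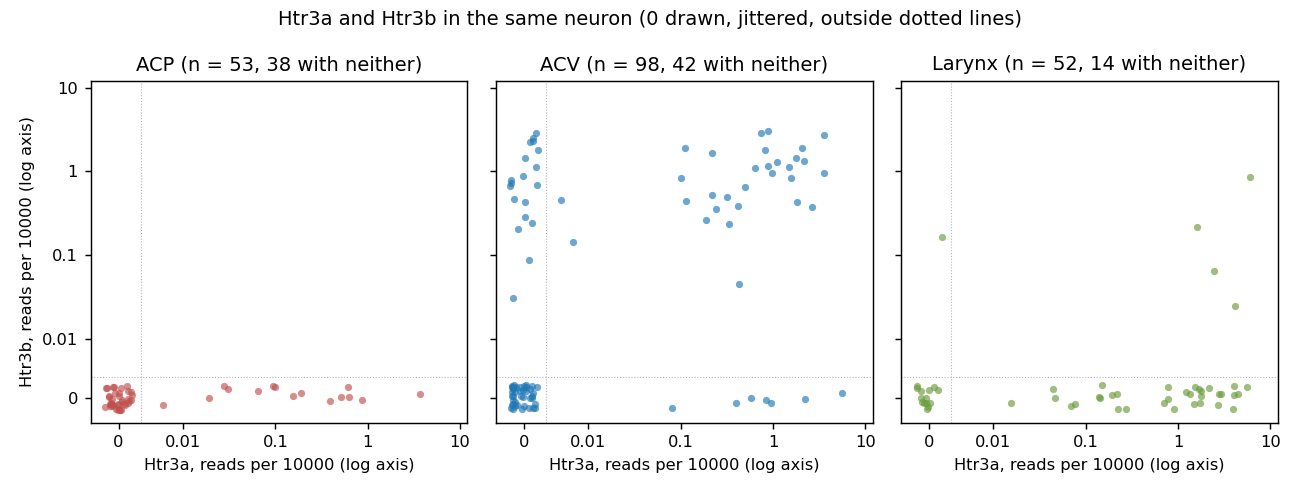
Level of *Htr3a* (x axis) and *Htr3b* (y axis), both as reads per 10000 outside Rn45s on log axes, in each ACP, ACV and Larynx neuron, with neurons at 0 drawn with jitter outside the dotted lines. The 30 neurons with both genes in ACV fill the upper right of their panel, 4 Larynx neurons do so in theirs, and no ACP neuron lies above the dotted line.

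Within ACV, *Htr3b* was detected in 30 of 37 neurons with *Htr3a* (81.1%, 64.8 to 92) and in 19 of 61 without it (31.1%, 19.9 to 44.3). Conversely, *Htr3a* was detected in 30 of 49 ACV neurons with *Htr3b* (61.2%) and in 7 of 49 without it (14.3%). In Larynx neurons *Htr3b* was detected in 4 of 37 with *Htr3a* (10.8%) and in 1 of 15 without it (6.67%). In the 30 ACV neurons with both, *Htr3b* had the higher count in 17 and *Htr3a* in 12, and the log2 ratio of *Htr3b* to *Htr3a* ran from -3.26 to 6.48 with a median of 0.40. Spearman's rho of the 2 levels over these 30 neurons was 0.39, as a description.

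The number of genes detected and the share of counts on *Rn45s* moved with co-detection. The ACV neurons with both genes had a median of 8762 genes with a read, those with *Htr3b* alone 7853, those with *Htr3a* alone 7080 and those with neither 6594. The median share of counts on *Rn45s* was 30.1%, 28.9%, 45.6% and 42.6% in the same order. Among the 49 ACV neurons at or above the ACV median of 7627 genes, *Htr3b* was detected in 24 of 26 with *Htr3a* (92.3%) and 11 of 23 without (47.8%). Among the 49 below it, the shares were 6 of 11 (54.5%, 23.4 to 83.2) and 8 of 38 (21.1%, 9.55 to 37.3). The share was higher beside *Htr3a* on both sides of that median, with overlapping intervals below it. It was lower where fewer genes were detected. Beside other receptors in ACV, *Htr3b* was detected in 8 of 9 neurons with *Htr4*, 10 of 15 with *Htr1a*, 17 of 31 with *Htr2c* and 3 of 8 with *Htr2a*. The part of depth in the co-detection was not tested. With every neuron thinned to 250000 counts outside *Rn45s*, the shares were 82.4% with *Htr3a* and 31.2% without. Thinning evens out these counts only and not the *Rn45s* share, so it was no test of that part.

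Detection of the 6 listed ACV markers differed over these classes to unlike degrees, and the class with *Htr3a* alone held only 7 neurons. *Ghsr*, the ghrelin receptor, was detected in 86.7% of the ACV neurons with both subunits, 78.9% with *Htr3b* alone, 71.4% with *Htr3a* alone and 45.2% with neither. *Lepr*, the leptin receptor, was detected in 90%, 52.6%, 14.3% (1 of 7, 0.361 to 57.9) and 54.8% in the same order. *Sstr2* was detected in 73.3%, 73.7%, 57.1% and 47.6%, *Sstr5* in 76.7%, 57.9%, 28.6% and 45.2%, and *P2ry1* in 70%, 73.7%, 57.1% and 52.4%. *Bche*, butyrylcholinesterase, was detected in 96.7%, 94.7%, 100% and 81%, so that it varied less. Of the listed ACP markers, *Calb1* was detected in 60%, 21.1%, 71.4% and 40.5% in the same order, and *Trhr* in 6.67%, 10.5%, 42.9% and 14.3%. *Tacr3* was detected in 10%, 15.8%, 0% and 7.14%, and *Mc4r* in 20%, 26.3%, 14.3% and 28.6%. The part of the number of genes detected in these shares was not tested.

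**Figure D3:**
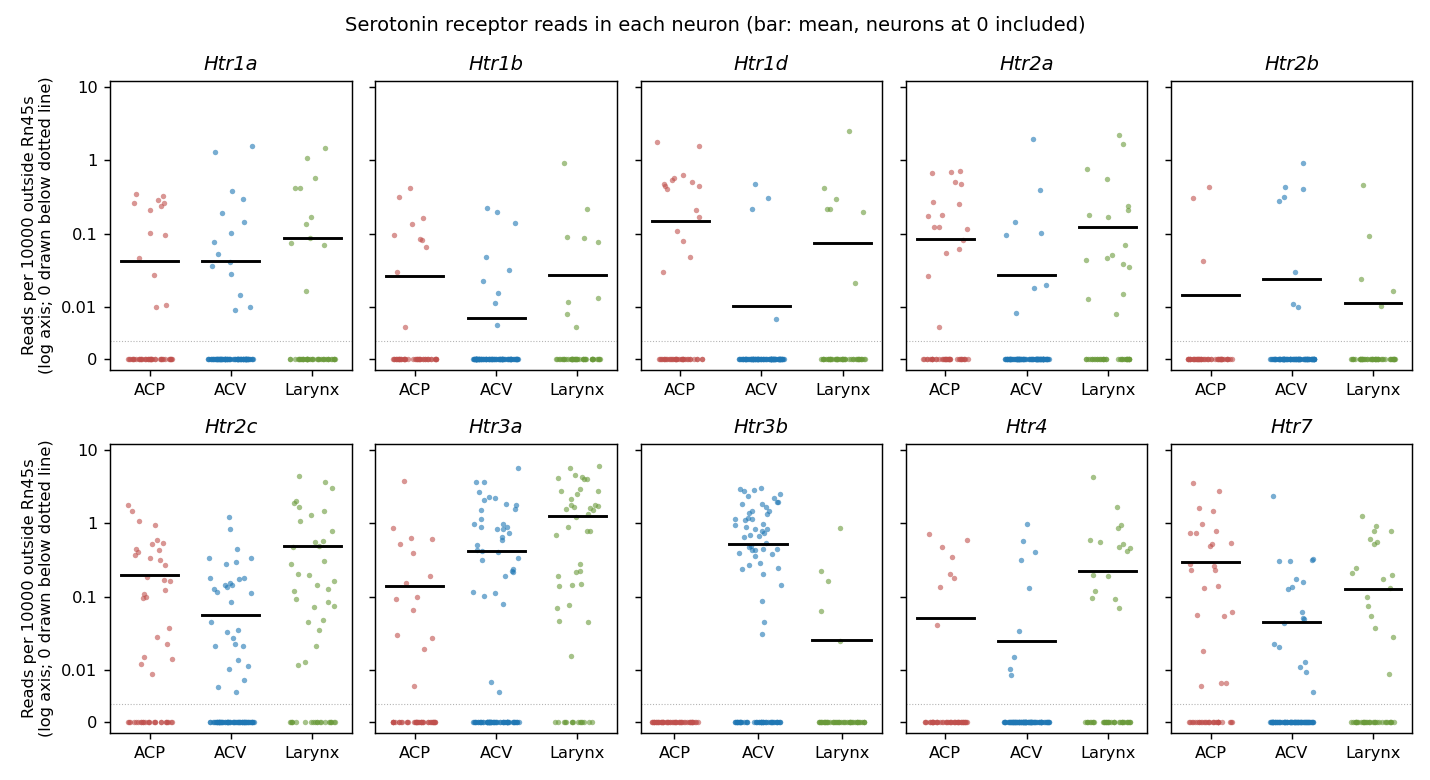
Level of each of the 10 genes (y axis, reads per 10000 outside Rn45s, log axis) in each neuron by type, with neurons at 0 below the dotted line and the mean over all neurons as a bar. Most genes have a majority of neurons at 0 in every type and a few neurons above 1, and ACP has no point above the dotted line for *Htr3b*.

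Of the Gi/o-coupled receptors, *Htr1d*, an inhibitory receptor often found on axon terminals, was detected in 16 of 53 ACP neurons (30.2%, 18.3 to 44.3), 4 of 98 ACV neurons (4.08%, 1.12 to 10.1) and 7 of 52 Larynx neurons (13.5%, 5.59 to 25.8). Its level reached 1.80 in ACP, 0.474 in ACV and 2.50 in Larynx neurons, and its median was 0 in each. The mean was 0.152 ± 0.358 in ACP (SD, n = 53), 0.0103 ± 0.0610 in ACV (SD, n = 98) and 0.0744 ± 0.353 in Larynx neurons (SD, n = 52). A single Larynx neuron held 65.4% of the Larynx reads, and a single ACV neuron 61.8% of the ACV reads.

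*Htr1a*, the somatodendritic inhibitory receptor, differed little in its share, at 13 ACP (24.5%), 15 ACV (15.3%) and 11 Larynx neurons (21.2%). Its mean level was 0.0424 ± 0.0967 in ACP, 0.0434 ± 0.210 in ACV and 0.0872 ± 0.271 in Larynx neurons. *Htr1b*, the related terminal receptor, was detected in 10 ACP (18.9%), 9 ACV (9.18%) and 9 Larynx neurons (17.3%), with 60.6% of the Larynx reads in 1 neuron. The exons of *Htr1b* overlap those of *D430036J16Rik* on the opposite strand, and strand use in counting was not given in the sources used here, so its reads are uncertain. Of the neurons with *Htr1b*, 7 of 10 ACP, 1 of 9 ACV and 4 of 9 Larynx neurons also had a read of *D430036J16Rik*.

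The Gq-coupled *Htr2c*, whose transcript undergoes RNA editing, was the most widely detected of the 8 G protein-coupled receptors in each type. It had reads in 32 of 52 Larynx neurons (61.5%, 47 to 74.7), 28 of 53 ACP neurons (52.8%, 38.6 to 66.7) and 31 of 98 ACV neurons (31.6%, 22.6 to 41.8). The level in Larynx neurons ran from 0 to 4.36 with a median of 0.0601 and a mean of 0.485 ± 0.953 (SD, n = 52). In ACP neurons it ran to 1.77 with a median of 0.0122 and a mean of 0.198 ± 0.371 (SD, n = 53), and in ACV neurons to 1.21 with a median of 0 and a mean of 0.0563 ± 0.165 (SD, n = 98). The Larynx and ACP intervals overlapped, and the ACV interval lay below that of Larynx and overlapped that of ACP.

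*Htr2a*, the other widely studied Gq-coupled receptor of motor neurons, was detected at like shares in ACP (17 of 53, 32.1%) and Larynx neurons (17 of 52, 32.7%). In ACV neurons it was detected in 8 of 98 (8.16%, 3.59 to 15.5), and 63.7% of the ACV reads lay in 1 neuron. Its mean level was 0.0861 ± 0.188 in ACP, 0.0278 ± 0.2 in ACV and 0.122 ± 0.4 in Larynx neurons.

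*Htr2b* was detected in under 10% of each type, in 3 ACP (5.66%), 8 ACV (8.16%) and 5 Larynx neurons (9.62%). Its exons overlap those of *Psmd1*, a proteasome subunit gene on the opposite strand that had a read in 51 of 53 ACP, 97 of 98 ACV and 51 of 52 Larynx neurons and a mean level above 3 in each type, so its reads are uncertain as well.

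The Gs-coupled receptors had their highest shares in different types, with ACP and Larynx intervals that overlapped for both. The Larynx and ACV intervals also overlapped for *Htr7*, and the ACP and ACV intervals for *Htr4*. *Htr7* was detected in 24 of 53 ACP neurons (45.3%, 31.6 to 59.5), 18 of 52 Larynx neurons (34.6%, 22 to 49.1) and 19 of 98 ACV neurons (19.4%, 12.1 to 28.6). Its level ran to 3.46 in ACP, 1.26 in Larynx and 2.36 in ACV neurons, with a median of 0 in each. The mean was 0.292 ± 0.668 in ACP (SD, n = 53), 0.128 ± 0.277 in Larynx (SD, n = 52) and 0.0458 ± 0.245 in ACV neurons (SD, n = 98). Without the ACV neuron of highest level, the ACV mean of *Htr7* was 0.0220.

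*Htr4* was detected in 16 of 52 Larynx neurons (30.8%, 18.7 to 45.1), 8 of 53 ACP neurons (15.1%) and 9 of 98 ACV neurons (9.18%). Its mean level was 0.222 ± 0.650 in Larynx, 0.0505 ± 0.149 in ACP and 0.0251 ± 0.124 in ACV neurons, and its highest level was 4.25 in a Larynx neuron. The Larynx and ACP intervals of the share overlapped.

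The Larynx neurons had the fewest counts and the highest shares of *Htr2c*, *Htr3a* and *Htr4*. The 5 listed markers of glutamatergic, GABAergic and glycinergic neurons also summed higher there, with a median of 2.41 per 10000 in Larynx neurons (0 to 12.4), 0.558 in ACP (0 to 19.9) and 0.477 in ACV neurons (0 to 22.2). Their part in the receptor shares was not tested. After thinning to 250000 counts, with 3 Larynx neurons left out as too shallow, *Htr3a* was detected in 20.8% of ACP, 34.7% of ACV and 71.4% of Larynx neurons. *Htr3b* was then detected in 0%, 49% and 8.16%, *Htr2c* in 45.3%, 23.5% and 55.1%, *Htr7* in 41.5%, 14.3% and 36.7%, and *Htr1d* in 28.3%, 3.06% and 14.3%. Each of these genes kept the order of its types.

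The next comparison asked which receptors differed between the 2 cardiac types. The log2 ratio of mean levels was taken with 0.01 added to both means, which understates the ratio of low genes. A gene was counted as past 2-fold where the ratio exceeded it and at least 10% of the neurons of either type had a read. Between ACP and ACV, 9 of the 10 members met the detection minimum, 5 were past 2-fold higher in ACP and 2 higher in ACV, beside 7.55% and 6.31% of 13357 genes. *Htr1d* had the largest ratio toward ACP (log2 2.99), followed by *Htr7* (2.44), *Htr2c* (1.65), *Htr2a* (1.34) and *Htr1b* (1.10). *Htr3b* (-5.75, which depends on the added constant and is no bound) and *Htr3a* (-1.51) had the ratios toward ACV. *Htr4* (0.78) and *Htr1a* (-0.03) stayed within 2-fold. The median over the 9 members was 1.10, and over all genes 0.00. The ratio of *Htr1b* was past 2-fold under 6 of 12 alternative settings only, at 0.10 with neurons of at most 900 *Apoe* counts and 0.76 without the highest ACP neuron. Leaving out the highest ACV neuron gave 3.24 for *Htr7* and 2.40 for *Htr2a*, and leaving out the highest ACP neuron gave -2.39 for *Htr3a*. Without the 11 ACP and 28 ACV neurons over 1800 *Apoe* counts, the members past 2-fold were 4 higher in ACP and 2 in ACV, beside 10.4% and 5.97% of genes, and the ratios were 3.33 for *Htr7* and 2.10 for *Htr2a*.

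**Figure D4:**
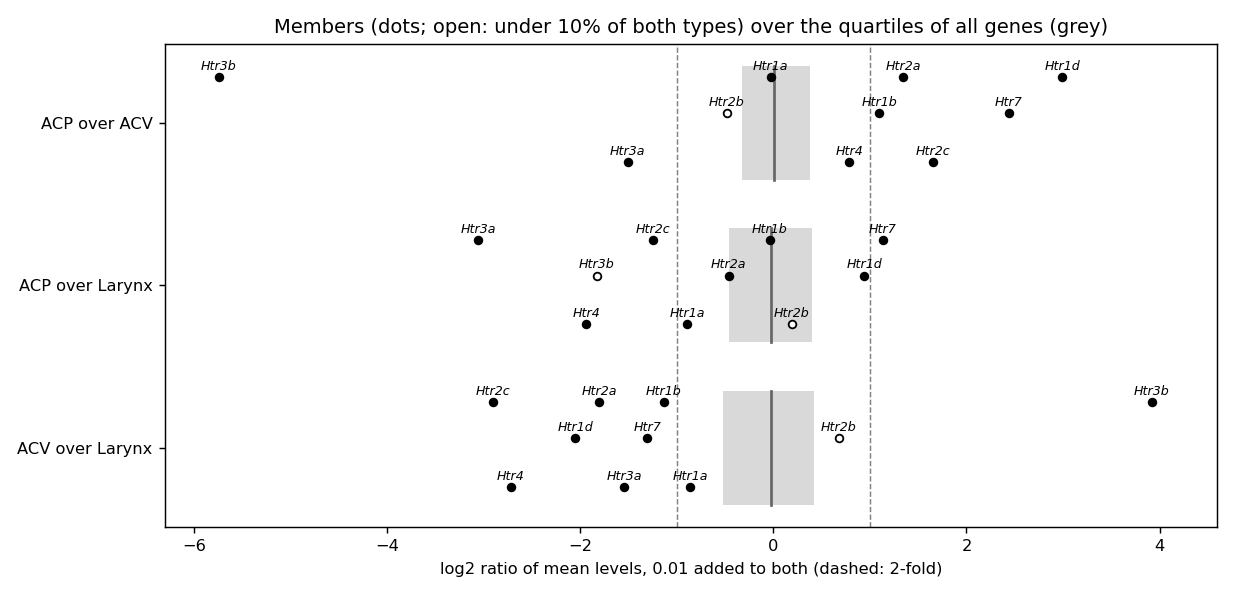
Log2 ratio of mean levels (x axis, 0.01 added to both means) of the 10 genes for ACP over ACV, ACP over Larynx and ACV over Larynx, as dots over the span between the quartiles of all genes in grey with their median as a line, and 2-fold marked by dashed lines. Open dots had reads in under 10% of both types. The dots of ACV over Larynx lie mostly left of 2-fold, with *Htr3b* alone past it on the right at 3.92.

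Between ACP and Larynx, 8 members met the detection minimum. *Htr7* was past 2-fold higher in ACP (1.13), and *Htr3a* (-3.06), *Htr4* (-1.94) and *Htr2c* (-1.25) were higher in Larynx neurons, 1 and 3 members beside 8.09% and 10.1% of 13257 genes. *Htr1d* (0.94) and *Htr1a* (-0.89) lay just inside 2-fold, *Htr2a* was at -0.46 and *Htr1b* at -0.04. *Htr1d* was past 2-fold under 6 of 12 alternative settings, *Htr7* under 9 and *Htr2c* under 10. Without the highest ACP neuron, the ratio of *Htr7* was 0.81 and no longer past 2-fold, and that of *Htr3a* was -3.94. Without the highest Larynx neuron, that of *Htr4* was -1.34. The median was -0.68 over the 8 members and -0.03 over all genes.

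Between ACV and Larynx, 9 members met the minimum. *Htr3b* was past 2-fold higher in ACV (3.92), and 7 members were higher in Larynx neurons, namely *Htr2c* (-2.90), *Htr4* (-2.72), *Htr1d* (-2.05), *Htr2a* (-1.81), *Htr3a* (-1.55), *Htr7* (-1.31) and *Htr1b* (-1.14), beside 7.87% and 11.8% of 13298 genes. *Htr1a* was at -0.86. The calls of *Htr1d* and *Htr1b* rested on 1 Larynx neuron each, at levels of 2.50 and 0.926, without which the ratios were -0.86 and -0.23. *Htr1b* was past 2-fold under 6 of 12 alternative settings. Without the highest Larynx neuron the ratio was -2.12 for *Htr4* and 4.80 for *Htr3b*, and without the highest ACV neuron -2.86 for *Htr2a* and -2.11 for *Htr7*. The median was -1.55 over the 9 members and -0.02 over all genes. These comparisons share the neurons of each type and are not independent. Keeping *Rn45s* in the totals moved the median of all genes to 0.52 for ACP over Larynx and 0.45 for ACV over Larynx, with 2593 and 400 genes past 2-fold in the first, against 1072 and 1336 here. The members higher in Larynx neurons were then 2 of the 3 (*Htr3a*, *Htr4*) in the first and 5 of the 7 in the second.

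Across the family, the leading receptors differed in part among the types, and *Htr3a* was at rank 1 or 2 in each. Per kilobase of exon, the highest mean levels in ACP were those of *Htr7* (0.0861 per 10000), *Htr3a* (0.0668) and *Htr1d* (0.0475). In ACV they were *Htr3b* (0.219) and *Htr3a* (0.199), and the third, *Htr7*, was at 0.0135. In Larynx neurons *Htr3a* (0.591) was followed by *Htr2c* (0.0520), *Htr4* (0.0452) and *Htr7* (0.0376). The SD over neurons exceeded the mean for every member in every type where it was detected, and neighbours in these orders lay within that spread.

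By coupling, any ion channel subunit was detected in 57.1% of ACV (46.8 to 67.1), 73.1% of Larynx (59 to 84.4) and 28.3% of ACP neurons (16.8 to 42.4). Any Gq-coupled member was detected in 71.7% of ACP, 75.0% of Larynx and 38.8% of ACV neurons, any Gs-coupled member in 52.8%, 48.1% and 24.5%, and any Gi/o-coupled member in 50.9%, 38.5% and 26.5%. The summed level of the 10 genes was 1.002 ± 0.955 in ACP, 1.18 ± 1.37 in ACV and 2.42 ± 2.37 in Larynx neurons. Of that sum the ion channel subunits made up 79.7% in ACV, 52% in Larynx and 13.9% in ACP neurons. The Gs-coupled receptors made up 34.2% in ACP, 14.5% in Larynx and 6.00% in ACV neurons. These sums were not divided by exon length, which was 2083 bases for *Htr3a* and 9328 for *Htr2c*, so long genes weigh more in them.

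**Figure D5:**
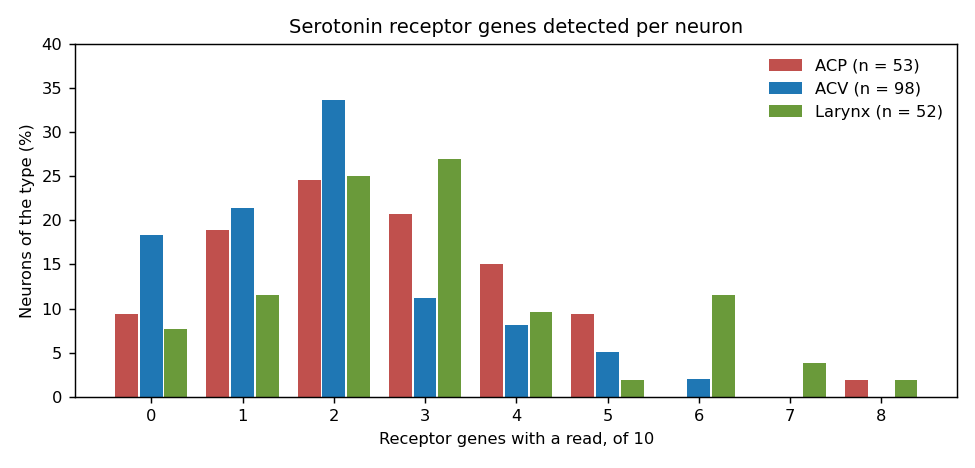
Share of neurons of each type (y axis, percent) by the number of the 10 receptor genes with a read (x axis). ACV has the largest share at 0, 18.4%, and neurons with 3 or more genes make up 55.8% of the Larynx type, 47.2% of ACP and 26.5% of ACV.

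Single neurons often held several receptors. The median number of the 10 genes with a read was 2 in ACP, 2 in ACV and 3 in Larynx neurons, and the most was 8, 6 and 8. No receptor read was found in 5 ACP (9.43%), 18 ACV (18.4%) and 4 Larynx neurons (7.69%). At least 3 genes were found in 25 ACP (47.2%), 26 ACV (26.5%) and 29 Larynx neurons (55.8%), and in 34%, 17.3% and 57.1% after thinning. The most frequent pair in Larynx neurons was *Htr2c* with *Htr3a*, in 25 of 52 (48.1%). Of the 16 Larynx neurons with *Htr4*, 15 also had *Htr3a*, as did 9 of 9 with *Htr1b* and 12 of 17 with *Htr2a*. In all Larynx neurons, *Htr3a* was detected in 71.2% and *Htr2c* in 61.5%. In ACP neurons *Htr2c* and *Htr7* occurred together in 14 of 53 (26.4%), where their own shares were 52.8% and 45.3%. Whether these pairs exceeded what the shares of the single genes give was not tested.

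The rest of the serotonin pathway was read from a list of 55 genes, of which 54 were in the table. Between ACP and ACV, 6 were past 2-fold higher in ACP and 4 in ACV of the 49 that met the detection minimum (12.2% and 8.16%, beside 7.55% and 6.31% of all genes). Between ACP and Larynx the counts were 9 and 4 of 49 (18.4% and 8.16%, beside 8.09% and 10.1%), and between ACV and Larynx 7 and 8 of 46 (15.2% and 17.4%, beside 7.87% and 11.8%). The median log2 ratios were 0.22, 0.07 and -0.19, beside 0.00, -0.03 and -0.02 over all genes. Several of these calls rested on 1 neuron. Without the highest ACP neuron, *Htr1f* and *Htr6* fell inside 2-fold against ACV. So did *Ddc*, *Maob*, *Kcnj6* (0.58), *Kcnj9* and *Adarb2* (0.64) against Larynx neurons. For ACV against Larynx, *Kcnj6* and *Prkca* fell inside it without the highest ACV neuron, and *Adcy9* (-0.83) without the highest Larynx neuron.

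Of the other receptor genes, *Htr6*, a Gs-coupled receptor, was detected in 12 ACP (22.6%), 5 ACV (5.10%) and 5 Larynx neurons (9.62%). *Htr1f*, a Gi/o-coupled receptor, was detected in 6 ACP (11.3%), 4 ACV (4.08%) and 8 Larynx neurons (15.4%). Without the highest ACP neuron, the log2 ratios of ACP over ACV fell inside 2-fold, from 1.36 to 0.76 for *Htr6* and from 1.66 to 0.95 for *Htr1f*. *Htr5a* was detected in 12 ACP (22.6%), 16 ACV (16.3%) and 10 Larynx neurons (19.2%) and *Htr5b* in 2, 3 and 1.

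Genes of serotonin handling also differed among the types. *Ddc*, the decarboxylase of serotonin and dopamine synthesis, had a mean level of 0.381 in ACV, 0.139 in ACP and 0.0492 in Larynx neurons. The log2 ratio of *Ddc* for ACP over Larynx was 1.33, and 0.72 without the highest ACP neuron. *Slc18a2*, the vesicular monoamine transporter, had 0.691 in ACP, 0.204 in ACV and 0.255 in Larynx neurons. *Slc6a4*, the serotonin uptake transporter, was detected in 13 ACP neurons (24.5%), 4 ACV neurons (4.08%) and 5 Larynx neurons (9.62%). The breakdown enzyme *Maoa* had mean levels of 1.69 in ACP, 2.71 in ACV and 0.377 in Larynx neurons, and *Maob* 0.133, 0.638 and 0.0520. The log2 ratio of *Maob* for ACP over Larynx was 1.21, and 0.94 without the highest ACP neuron. *Tph2*, the neuronal enzyme that commits tryptophan to serotonin, was detected in 7 ACP, 1 ACV and 2 Larynx neurons, *Tph1* in 2, 1 and 4, and *Fev*, a transcription factor of serotonergic neurons, in 0, 2 and 0.

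Downstream of the G protein-coupled receptors, *Kcnj3*, a potassium channel subunit opened by Gi/o, had a log2 ratio of 1.79 for ACP over ACV and -1.81 for ACV over Larynx. *Rgs4*, which shortens Gi/o and Gq signals, was higher in both cardiac types than in Larynx neurons (1.97 and 2.15), and *Kcnj9* was higher in ACP than Larynx neurons (1.16, and 0.88 without the highest ACP neuron). *Plcb4*, a phospholipase C of the Gq arm, was higher in ACV than in ACP (-3.13) and Larynx neurons (2.58), and *Prkca* was higher in ACV than Larynx neurons (1.01, and 0.91 without the highest ACV neuron). *Itpr3*, an inositol trisphosphate receptor, was higher in Larynx neurons than in ACP (-3.96) and ACV (-4.93), and *Plcb1* was higher in Larynx than ACP neurons (-1.17). Of the Gs arm, the adenylyl cyclase *Adcy8* was lower in ACP than in ACV (-2.53) and Larynx neurons (-2.01), *Gnas*, the Gs alpha subunit, was lower in ACP than Larynx neurons (-1.30), and *Prkacb* (-1.70) and *Adcy3* (-1.55) were lower in ACV than Larynx neurons.

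Likeness to other genes was measured as Spearman's rho of levels over all neurons for 12810 genes, which share each neuron's depth and the types themselves. The genes most like *Htr3b* were *Cd9* (0.58), *Hoxa5* (0.56) and *Vstm2a* (0.54). Those most like *Htr3a* were *Slc10a4* (0.45), *Lynx1* (0.43) and *Chodl* (0.42), those most like *Htr2c* were *Sv2b* (0.41), *Galnt16* (0.41) and *Chst2* (0.37), and those most like *Htr7* were *Prmt8* (0.40), *Fam189a1* (0.36) and *Adamts3* (0.35). Over the 98 ACV neurons alone, *Slc10a4* (0.54), *Vstm2a* (0.52) and *Chodl* (0.50) were most like *Htr3b*, and *Htr3a* ranked 13 of 12811 genes (0.46). *Slc10a4* and *Chodl* were thus near both *Htr3* genes.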

How the data were processed

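Single labelled neurons were sequenced by Smart-seq2 with Nextera XT libraries as paired reads of 75 bases. The authors trimmed reads with Skewer 0.2.2, aligned them with STAR 2.6.1d to mm10, removed neurons under 500000 aligned reads or over 1800 *Apoe* counts, and clustered them in Seurat 3.1.4. The counting program, annotation and strand use were not given in the sources used here. The deposited table holds raw counts per gene, and a deposited annotation (unit other: names) gives the type of each neuron. A second deposited table of scaled values was not used, since the totals of its columns differ. Counts were divided by the total of each neuron outside *Rn45s* and multiplied by 10000. Total counts outside *Rn45s* ran from 118492 to 2396541, and intervals cover counting error only. No label names an animal, so no test was made and no p-value is given. Types of neurons came from the annotation. All 10 members are named, with the other receptors and the genes of synthesis, transport and breakdown. Of the signalling arms, up to 2 genes per comparison and direction past 2-fold and detected in at least 25% of either type are named. The members and lists were chosen with earlier results of these data known. The alternatives were other scalings (TMM from edgeR 4.0.16, size factors from DESeq2 1.42.0), thinning to 250000 counts, limits on *Apoe* (900) and depth (1000000 counts), read minimums, pseudocounts and folds. The limit of 1800 *Apoe* counts, the division at the ACV median of genes detected and leaving out the highest neuron of 1 type were added after seeing the data. The fold rule was tested on simulated data with 4-fold changes and a smoother spread over neurons. That run does not cover 2-fold calls of genes undetected in most neurons. Scripts ran in Python 3.11.15 and R 4.3.3.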

Additional observations from a re-analysis of the deposited data

How the results depend on the processing

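No ratio of a member that was past 2-fold changed its direction under any of the alternatives. With *Rn45s* kept in the totals, the share of genes past 2-fold was 4.12% toward ACV against ACP, 19.6% toward ACP and 3.02% toward Larynx neurons, and 18.5% toward ACV and 4.52% toward Larynx neurons. The members higher in ACP than Larynx neurons were then 2, as they were with TMM library sizes and at 1.5-fold, with *Htr1d* joining *Htr7*. With at most 900 *Apoe* counts (26 ACP, 44 ACV and 38 Larynx neurons), 12.2% of genes were past 2-fold toward ACP and 9.70% toward ACV, and the cause was not tested. With detection in at least 25% of either type, 4.03% were past it toward ACV against ACP, where fewer low genes enter. At 1.5-fold the shares were 16.5% and 13.7% for ACP against ACV, 17.9% and 20.3% for ACP against Larynx, and 18.2% and 22.98% for ACV against Larynx. At 4-fold they were 1.48% and 1.22%, 1.51% and 1.91%, and 1.35% and 2.44%. The members past 4-fold were 2 higher in ACP (*Htr1d*, *Htr7*) and 1 in ACV (*Htr3b*), 0 in ACP and 1 in Larynx neurons (*Htr3a*), and 3 in Larynx than ACV neurons (*Htr1d*, *Htr2c*, *Htr4*) beside *Htr3b*.

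The share of ACV neurons with both *Htr3a* and *Htr3b* was 49% at or above the ACV median of genes detected and 12.2% below it. Beside *Htr3a* the *Htr3b* share was 92.3% and 54.5%, and without it 47.8% at or above that median. With read minimums of 2, 5 or 10, thinning, and limits on depth or *Apoe*, it stayed between 68.8% and 83.3% beside *Htr3a* and between 31.2% and 42.9% without it. Of the alternative ratios, 90 crossed 2-fold or moved by over 1.5 times and 270 did neither. With most neurons at 0, a difference within the intervals was not detectable at this depth. No paired analysis was possible because no test was made and the neurons carry no shared replicate numbers.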
